A study of Mus musculus with 51 samples.

Results

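NF-κB is a family of transcription factors built from 5 subunits, and the genes of all 5 (Nfkb1, Nfkb2, Rel, Rela and Relb) were followed here together with 5 genes whose products hold the pathway back or feed back on it (Nfkbia, Nfkbie, Nfkbiz, Tnfaip3 and Bcl3). The 10 members were taken by gene symbol from the 40077 rows of the count table, 1 row each, in every tumor and cell group. The RNA-seq libraries came from mouse Myc-CaP prostate cancer cells and tumors and from B16-BL6 melanoma tumors in which UBA1, the enzyme that starts most ubiquitin conjugation, was depleted, overexpressed or inhibited. The table held 51 libraries in 16 groups, of which 16 libraries were cultured cells and 35 were tumors.

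In resting cells NF-κB dimers are kept in the cytoplasm by IκB proteins, among them those made by Nfkbia and Nfkbie. A signal from a receptor such as the TNF receptor leads to phosphorylation of IκB, which is then tagged with ubiquitin and degraded by the proteasome. The products of Nfkb1 and Nfkb2 are long precursors that are trimmed by the proteasome into DNA-binding subunits, a step that also depends on ubiquitin. Nfkb2, Relb, Nfkbia, Nfkbie, Tnfaip3 and Bcl3 are themselves well known targets of NF-κB, so their RNA is often read as a trace of the pathway's activity. Tnfaip3 encodes A20, an enzyme that edits ubiquitin chains on signaling adaptors, while Nfkbiz and Bcl3 encode atypical nuclear IκB proteins that modify what NF-κB does at its targets.

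All cultured groups were Myc-CaP cells. In 1 experiment the cells were left untreated, exposed to TAK-243 (a UBA1 inhibitor, 50 nmol/L for 18 hours), to IFN-γ (1 ng/mL for 18 hours) or to both, with 2 libraries in each of the 4 groups. In a second experiment, cells carrying a control sgRNA (sgNC) or a Uba1 sgRNA (sgUba1) were grown with or without IFN-γ, again with 2 libraries in each of 4 groups. The sgUba1 lines were sublines grown from single cells after CRISPR, so a line stands for 1 clone, and which of the Uba1 guides each sample carried was not given. The tumor groups were subcutaneous grafts. Myc-CaP tumors grew in male FVB mice and B16-BL6 tumors in female C57BL/6 mice, all 6 to 8 weeks of age. They comprised 3 B16-BL6 sgNC and 4 B16-BL6 sgUba1 tumors, 3 Myc-CaP sgNC and 7 Myc-CaP sgUba1 tumors, 3 Myc-CaP tumors with empty vector (EV) and 4 with Uba1 overexpressed from a lentivirus (Uba1 OE), and 6 Myc-CaP tumors from vehicle-treated (Veh) and 5 from TAK-243-treated mice (25 mg/kg intravenously, 2 doses a week). Tumors were injected in both flanks, so some may share a mouse, and the labels do not say which cell libraries were separate cultures. P-values therefore measure the spread between these libraries.

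Library totals ranged from 8651963 to 38032284 estimated counts, with 12860844 to 16793793 in the TAK-243 cell experiment and 26768450 to 38032284 in the sgRNA cell experiment. Uba1 RNA was read beside the labels in CPM (counts scaled to library size, with TMM factors within an experiment). It was at 269 to 295 CPM in sgUba1 cells against 526 to 600 CPM in sgNC cells. B16-BL6 sgUba1 tumors held 208 to 247 CPM against 410 to 455 CPM in their controls. Uba1 OE tumors held 631 to 747 CPM against 278 to 310 CPM in EV tumors. In the Myc-CaP sgUba1 tumors Uba1 RNA was not lower than in the controls in 4 of 7. Tumors 1, 2 and 3 held 197, 202 and 211 CPM, below the sgNC range of 320 to 337 CPM, while tumors 4 to 7 held 361 to 383 CPM, above every control. Whether UBA1 protein was depleted in those 4 tumors cannot be read from RNA. The paper showed partial depletion of UBA1 protein in sgUba1 cells by immunoblot with independent guides. Results for that group are given with and without those 4 tumors. The labels call every sample epithelial, but RNA of the epithelial keratin Krt8 was at 0 to 0.0263 TPM in B16-BL6 tumors, where summed melanocyte marker RNA was 10268 to 12233 TPM, and in the Myc-CaP cells the epithelial marker Epcam was at 0 to 0.13 TPM.

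Per length, Rela was the most abundant member in cultured Myc-CaP cells without TAK-243, at 49.3 to 64.3 TPM (transcript abundance corrected for length, the scale used here for levels between genes) over 12 libraries. Its range overlapped that of no other member. Nfkb1 followed with a median of 32.4 TPM, Nfkbia with 27.7 TPM and Tnfaip3 with 21.6 TPM, and each of these 3 overlapped in range the member next below it. Bcl3, Nfkb2 and Nfkbiz lay together with medians of 16, 15.5 and 14.4 TPM and overlapping ranges. Rel, the subunit best known from lymphocytes, stood apart at 3.18 to 5.82 TPM. Relb at 0.442 to 1.79 TPM and Nfkbie at 0.183 to 0.509 TPM were the scarcest members and overlapped, Nfkbie with only 5 to 15 estimated counts in a library.

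Relb, Nfkbie and Nfkbia were more abundant in Myc-CaP tumors than in cultured cells without TAK-243. In the 28 Myc-CaP tumors Relb ranged from 2.51 to 9.76 TPM, Nfkbie from 0.771 to 5.93 TPM and Nfkbia from 39.3 to 70.8 TPM, all above the whole range of those 12 libraries. With TAK-243 the cultured cells held 132 to 145 TPM of Nfkbia, 13.4 to 21.2 TPM of Relb and 1.35 to 2.64 TPM of Nfkbie, above the tumor range in Nfkbia and Relb and within it in Nfkbie. Of the 10 members 3 lay wholly above the range without TAK-243, where 19.3% of all genes with a mean of at least 1 TPM did. The 7 B16-BL6 tumors held still more Nfkbie, at 8.93 to 19.2 TPM. Their Relb, at 9.68 to 15.5 TPM, met the top of the Myc-CaP range. By contrast Bcl3 (2.23 to 7.45 TPM in B16-BL6 against 12.1 to 55.7 TPM in Myc-CaP tumors), Tnfaip3 (2.8 to 6.9 against 7.81 to 37.7 TPM), Rela (23.1 to 31.7 against 33.8 to 72.3 TPM), Rel, Nfkbia and Nfkbiz lay below every Myc-CaP tumor. These 6 members below and 1 above stand beside 17.4% and 17.2% of all genes. Cell type, host strain and sex of the host all differ between the models and cannot be told apart, and fewer cells of a type and less RNA per cell cannot be told apart in bulk tissue. The summed RNA of 20 leukocyte markers was 117 to 800 TPM in the Myc-CaP tumors, 112 to 245 TPM in the B16-BL6 tumors and 3.34 to 14.3 TPM in all cultured cells, TAK-243 included, where 9 to 14 of the 20 were at 0, and its part in these differences was not tested.

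**Figure D1:**
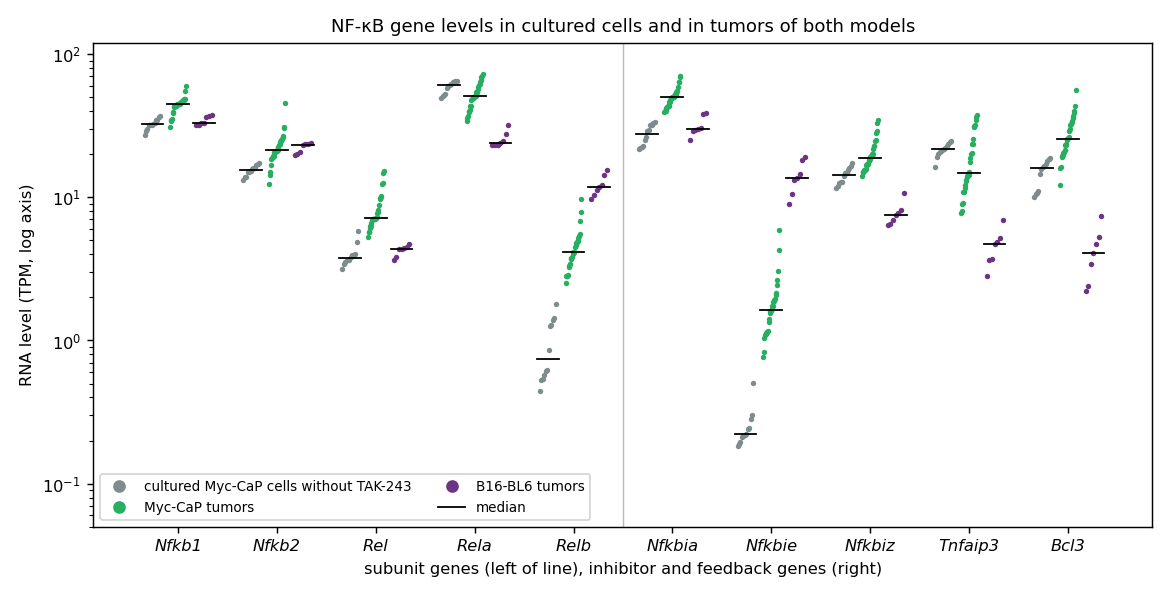
RNA level in TPM (log axis) of the 10 members in each cultured Myc-CaP library without TAK-243 (grey, 12 libraries), each Myc-CaP tumor (green, 28) and each B16-BL6 tumor (purple, 7), with black bars at the medians. Relb and Nfkbie are lowest in culture and highest in B16-BL6 tumors, while Bcl3, Tnfaip3 and Rela are lowest in B16-BL6 tumors.

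Several members carry NF-κB binding motifs just upstream of their start site. RefSeq (GRCm38.p6) promoter sequences matched 7 of the 10 members: Nfkb2, Rel, Rela, Nfkbia, Nfkbie, Tnfaip3 and Bcl3, and no entry was found for Nfkb1, Relb and Nfkbiz. The 250 bases before each start site were searched on both strands for the κB consensus, a motif of 10 bases. It was present in at least 1 window of 5 of these 7 genes, and in 8.23% of the 27025 genes in the table. Rela and Bcl3 had no match, which says only that these letters are not in this window. The windows of the 5 genes with a match are given 5′ to 3′ on the gene's own strand with each match in capitals, together with that of Bcl3 as an example without one. A match is a description of the letters and no measure of the response to TAK-243 described below. Of the 5 genes with a match, Nfkbie rose by 2.75, Nfkb2 by 2.45, Nfkbia by 2.12, Rel by 1.01 and Tnfaip3 by 0.86 on the log2 scale. Without a match, Rela rose by 1.04, and Bcl3, at 0.22, did not pass. Whether a match goes with the size of the rise was not tested.
Nfkb2, chr19:46304487-46304736, plus strand: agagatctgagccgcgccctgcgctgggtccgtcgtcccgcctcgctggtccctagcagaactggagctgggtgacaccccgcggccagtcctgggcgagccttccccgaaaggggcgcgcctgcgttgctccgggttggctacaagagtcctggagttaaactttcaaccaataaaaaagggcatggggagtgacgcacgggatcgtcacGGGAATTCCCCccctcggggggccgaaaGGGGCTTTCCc
Rel, chr11:23770970-23771219, minus strand: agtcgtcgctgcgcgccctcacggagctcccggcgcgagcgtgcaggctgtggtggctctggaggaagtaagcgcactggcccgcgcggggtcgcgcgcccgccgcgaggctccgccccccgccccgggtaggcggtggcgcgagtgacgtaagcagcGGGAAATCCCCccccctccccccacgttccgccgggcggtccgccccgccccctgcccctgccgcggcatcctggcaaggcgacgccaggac
Nfkbia, chr12:55492648-55492897, minus strand: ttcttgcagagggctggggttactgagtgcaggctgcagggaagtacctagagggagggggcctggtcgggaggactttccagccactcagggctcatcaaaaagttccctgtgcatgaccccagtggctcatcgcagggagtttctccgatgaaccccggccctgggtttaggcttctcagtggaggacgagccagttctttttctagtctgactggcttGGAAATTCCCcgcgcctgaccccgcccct
Nfkbie, chr17:45555450-45555699, plus strand: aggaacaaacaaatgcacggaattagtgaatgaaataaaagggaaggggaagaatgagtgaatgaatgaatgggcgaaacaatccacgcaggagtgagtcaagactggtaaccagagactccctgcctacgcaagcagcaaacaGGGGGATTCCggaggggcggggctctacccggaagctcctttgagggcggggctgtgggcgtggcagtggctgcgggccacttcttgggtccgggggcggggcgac
Tnfaip3, chr10:19015411-19015660, minus strand: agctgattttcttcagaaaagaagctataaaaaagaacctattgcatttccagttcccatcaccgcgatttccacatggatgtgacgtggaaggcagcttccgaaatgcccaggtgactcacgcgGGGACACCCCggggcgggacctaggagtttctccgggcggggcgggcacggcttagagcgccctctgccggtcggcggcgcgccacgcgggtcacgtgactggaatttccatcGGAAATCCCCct
Bcl3, chr7:19822756-19823005, minus strand: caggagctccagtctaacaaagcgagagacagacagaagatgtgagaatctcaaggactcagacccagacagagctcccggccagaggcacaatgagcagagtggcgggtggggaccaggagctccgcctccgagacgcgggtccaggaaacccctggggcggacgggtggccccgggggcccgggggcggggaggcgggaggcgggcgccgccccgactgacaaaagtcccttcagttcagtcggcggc
In Nfkb2 a match to GGGAATTCCC lay 39 to 30 bases before the start site, overlapping a further match, with GGGGCTTTCC at 11 to 2 bases. Its other annotated starts also held a match each, among them GGGACTTTCC. In Nfkbia the only match, GGAAATTCCC, lay 29 to 20 bases before the start.

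TAK-243 in culture raised 9 of the 10 members. Untreated cells were compared with cells held in the inhibitor to ask how the RNA of a ubiquitin-dependent pathway stood when ubiquitin activation was blocked. All 5 subunit genes and 4 of the 5 inhibitor and feedback genes were higher (edgeR quasi-likelihood test, Benjamini-Hochberg adjusted p under 0.05), and Bcl3 did not pass. The inhibitor moved much of the transcriptome: 66.3% of all genes tested passed, with 32.3% of all genes higher. Against that background the median log2 fold change of the members was 1.03, beside 0.03 over all genes.

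Relb, the partner of the noncanonical pathway's p52, showed the largest change. It was at 1.98 and 1.56 CPM in the untreated libraries and at 22.5 and 18.1 CPM with TAK-243, an 11.5-fold rise (log2 3.52 ± 0.18, SE; adjusted p = 4.66e-17). Nfkb2, which encodes the precursor of p52, went from 31.5 and 32.2 CPM to 180 and 168 CPM (5.48-fold, log2 2.45 ± 0.05, adjusted p = 2.58e-26). The groups did not come near each other in either gene. Reads of Nfkb2 and of Psd, which overlap on opposite strands, cannot be told apart if counting ignored strand.

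Rela, Rel and Nfkb1, the subunits of the canonical dimers, rose less. Rela was at 84.1 and 82 CPM untreated and 176 and 164 CPM treated (log2 1.04 ± 0.04, adjusted p = 2.86e-19). Rel went from 24.5 and 29.2 CPM to 52.5 and 56.1 CPM (log2 1.01 ± 0.08, adjusted p = 4.71e-12). Nfkb1 had the smallest rise of the subunits, from 70.1 and 76.6 CPM to 120 and 113 CPM (log2 0.67 ± 0.05, adjusted p = 7.65e-13).

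Among the 5 inhibitor and feedback genes, Nfkbia and Nfkbie responded most. Nfkbib, which encodes the classical inhibitor IκBβ and is no member, rose less (log2 0.49 ± 0.11, adjusted p = 0.000212). Nfkbia, encoding IκBα, was at 30.1 and 30.8 CPM untreated and at 137 and 128 CPM with TAK-243 (4.35-fold, log2 2.12 ± 0.06, adjusted p = 8.4e-24). Nfkbie, encoding IκBε, rose from 0.319 and 0.375 CPM to 2.09 and 2.73 CPM (log2 2.75 ± 0.46, adjusted p = 4.53e-06). It rested on few counts and its error was the largest of the set. Nfkbiz was at 30.2 and 30.3 CPM and then at 59.2 and 58.2 CPM (log2 0.96 ± 0.07, adjusted p = 2.42e-13). Tnfaip3 was at 48 and 42.1 CPM and then at 83.6 and 79.2 CPM (log2 0.86 ± 0.07, adjusted p = 1.87e-12). Bcl3 stood out by its overlap, with 15.8 and 16.4 CPM untreated and 21.1 and 15.9 CPM treated (log2 0.22 ± 0.12, adjusted p = 0.103), and its value depended on single libraries: without the first TAK-243 library it was -0.08, and without the second it was 0.34 (edgeR, adjusted p = 0.0148). Bcl3 overlaps 2 annotated genes on the opposite strand, and Nfkb1 overlaps 1 on its own strand.

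Feedback genes and subunits did not separate as groups. The subunits' log2 fold changes ran from 0.67 to 3.52 with a median of 1.04, and those of the inhibitor and feedback genes ran from 0.22 to 2.75 with a median of 0.96. The split was instead within each group, with Relb, Nfkb2, Nfkbia and Nfkbie above 2 on the log2 scale and the other members near 1 or below. The epithelial marker Krt8 also rose, by 1.71 ± 0.17 on the log2 scale, and summed leukocyte marker RNA was 14.0 to 14.3 TPM with TAK-243 against 4.36 to 5.67 TPM without. With TAK-243, 9 of the 20 leukocyte markers were at 0 and 17, those included, had a mean under 1 TPM, against 11 and 17 without. Much of the sum was Cd68, at 6.54 to 7.93 TPM with and 1.76 to 2.73 TPM without. The part of Krt8 and of the leukocyte markers in the members' rise was not tested.

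**Figure D2:**
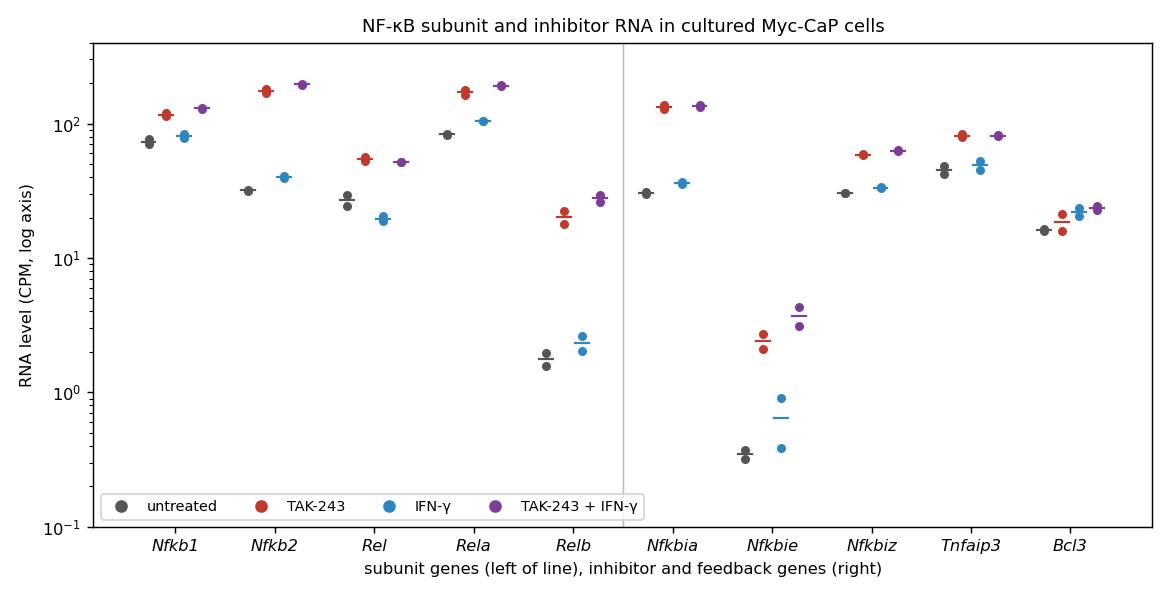
RNA level in CPM (log axis) of each member in the 8 libraries of the TAK-243 experiment, 2 per group, with bars at the group means (grey untreated, red TAK-243, blue IFN-γ, purple both). In 9 members both TAK-243 groups lie above both groups without it, and in Bcl3 the groups lie close together.

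The same 9 members were higher with TAK-243 when IFN-γ was present in both groups, where 68.2% of all genes passed and 32% were higher. Relb was at 2.61 and 2.04 CPM with IFN-γ alone and at 26.2 and 29.6 CPM with both agents (log2 3.59 ± 0.16, adjusted p = 2.85e-18). Nfkb2 changed by 2.29 ± 0.05, Nfkbia by 1.91 ± 0.05 and Nfkbie by 2.52 ± 0.38 on the log2 scale. Rel changed by 1.40 ± 0.09, Rela by 0.88 ± 0.04, Nfkbiz by 0.92 ± 0.07, Tnfaip3 by 0.73 ± 0.07 and Nfkb1 by 0.68 ± 0.05. Bcl3 was at 23.7 and 20.5 CPM and at 24.4 and 22.7 CPM (log2 0.09 ± 0.11, adjusted p = 0.472), and passed only with limma on TPM (adjusted p = 0.0489). For no member did the response to IFN-γ differ with TAK-243 in edgeR's test of the interaction, in which 2.38% of all genes passed. At an unadjusted p under 0.05 there were 4 members, where 14.8% of all genes were, and DESeq2 and limma called 0. The one nearest the threshold was Rel (0.39 ± 0.12 on the log2 scale, adjusted p = 0.0891), which passed without the first untreated library (adjusted p = 0.0305).

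Many other genes of the pathway also changed in TAK-243-treated cells, read here from lists chosen with earlier results of these data known. Each list count stands beside the 66.3% of all genes that passed, and each count higher beside the 32.3% of all genes that were higher. Of 40 known NF-κB targets 26 were expressed enough to test, of which 20 were higher and 2 lower, with a median log2 fold change of 1.47. The filter kept a gene expressed in any group of the experiment. A gene silent without TAK-243 could therefore enter only by being higher. This can raise the count higher and the median, here and among the ligands. Ier3, an early-response survival gene, was at 16 and 15.9 CPM untreated and at 265 and 279 CPM treated (log2 4.09 ± 0.05, adjusted p = 1.88e-31), and Ptgs2, the inducible cyclooxygenase, rose by 2.81 ± 0.04 on the log2 scale. Cd44, an adhesion receptor, rose by 1.90 ± 0.04 and Ier5 by 2.15 ± 0.05. Of the ligands 5 of 13 could be tested, 3 higher and 1 lower. Tnf, the prototypical NF-κB-inducing cytokine, had 0 counts in both untreated libraries and 13 and 18 counts with TAK-243.

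Further inhibitors of the pathway also rose: of 15 tested in a list of 16, 12 were higher and 2 lower, with a median of 0.77. They included the A20 cofactors Tax1bp1 (log2 1.56 ± 0.03) and Rnf11 (1.44 ± 0.06) and the deubiquitinases Otud7b (1.14 ± 0.03) and Cyld (0.77 ± 0.04). Receptors and adaptors were divided, 12 higher and 6 lower of 23, with Bcl10 up by 1.56 ± 0.07 and Ripk1 by 0.91 ± 0.06 and Irak1 down (log2 -1.02 ± 0.05). Of 11 kinases and their partners 7 were higher and 2 lower, among them Tab3 (1.12 ± 0.06), Tab2 (0.66 ± 0.04), Ikbkb (0.50 ± 0.06) and Map3k8 (1.63 ± 0.22). Of 16 ubiquitin enzymes that act on the pathway 10 were higher and 3 lower. With 66.3% of all genes called, nothing particular to the receptors, kinases and ubiquitin enzymes is read from these counts. Skp1a, a part of the ligase that tags IκB, rose by 1.04 ± 0.03, while Rbck1, a part of the linear ubiquitin ligase, fell by 0.87 on the log2 scale (SE 0.08).

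Partial loss of Uba1 in cultured cells left a different and much smaller trace. In sgUba1 against sgNC cells 4 of the 10 members passed, 3 higher and 1 lower, where 29.7% of all genes passed, 16.2% higher and 13.6% lower. Nfkbia was at 21.5 and 20.7 CPM in sgNC and at 26.9 and 26.8 CPM in sgUba1 cells (log2 0.35 ± 0.06, adjusted p = 0.00158). Bcl3 was at 16.2 and 19 CPM against 11.7 and 10.9 CPM (log2 -0.64 ± 0.09, adjusted p = 0.000355). These libraries did not overlap in either gene, and both calls held when any 1 of the 8 libraries was left out.

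The rises of Nfkb2, from 29.3 and 31.2 CPM to 35.7 and 34.8 CPM (log2 0.22 ± 0.06, adjusted p = 0.0215), and of Nfkb1, from 66.7 and 71 CPM to 80 and 76.2 CPM (log2 0.18 ± 0.05, adjusted p = 0.0237), were smaller and less secure. Both lost the call with DESeq2 (adjusted p = 0.0722 and 0.07) and when the first sgNC or either sgUba1 library was left out. Relb was at 0.59 and 0.523 CPM against 0.705 and 1.21 CPM, and did not pass. Rela was at 95.3 and 100 CPM against 101 and 94.8 CPM. In these clones Krt8 was higher by 1.61 ± 0.13 and Krt18 by 3.33 ± 0.49 on the log2 scale, and the part of a difference between clones was not tested.

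With IFN-γ in both groups, sgUba1 cells had 6 members past the threshold, 1 higher and 5 lower, where 39.4% of all genes passed, 17% higher and 22.4% lower. Nfkbia again was higher, at 25.4 and 25.3 CPM against 21.6 and 21.8 CPM (log2 0.22 ± 0.06, adjusted p = 0.0134). Bcl3 was at 11.2 and 10.7 CPM against 20.4 and 20 CPM (log2 -0.89 ± 0.09, adjusted p = 1.76e-05). Rela was at 81.2 and 84.6 CPM against 108 and 102 CPM (log2 -0.34 ± 0.05, adjusted p = 0.000318). Tnfaip3 was at 40.8 and 38.8 CPM against 49.4 and 48.4 CPM (log2 -0.30 ± 0.06, adjusted p = 0.00171). Nfkbiz was at 33.5 and 34.5 CPM against 40.7 and 41.5 CPM (log2 -0.27 ± 0.06, adjusted p = 0.00299). Nfkb2 was at 29.6 and 29.7 CPM against 35.1 and 32.8 CPM (log2 -0.19 ± 0.06, adjusted p = 0.0287). The calls of Rela and Bcl3 held in all 8 fits that left out 1 library. That of Nfkb2 was lost without any 1 of 5 libraries, namely the first sgNC library with IFN-γ and all 4 sgUba1 libraries (adjusted p up to 0.276). Nfkbia lost its call without either sgNC library with IFN-γ (adjusted p up to 0.0795). Nfkbiz lost it without the first sgUba1 library with IFN-γ (0.0873) and Tnfaip3 without the second (0.0587).

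The 2 ways of lowering UBA1 activity were compared directly, each against its own control. In a fit over all 16 cell libraries the TAK-243 effect exceeded the sgUba1 effect in all 10 members (adjusted p from 3.03e-14 to 0.000721), where 55.3% of all genes tested differed and 25.2% were higher. The difference was 2.72 ± 0.43 for Relb, 2.21 ± 0.08 for Nfkb2 and 1.75 ± 0.08 for Nfkbia on the log2 scale. It was 0.83 ± 0.16 for Bcl3, which did not pass with the inhibitor and was lower with the guide. The experiments also differ in how acutely and how far UBA1 was lowered, which cannot be told apart from the agent. Ier3, which rose with TAK-243, was at 27.3 and 27.6 CPM in sgNC and at 14.2 and 13.7 CPM in sgUba1 cells (log2 -0.98 ± 0.07, adjusted p = 6.08e-06). Among receptors Tlr3 (1.49 ± 0.10), Il1rap (1.09 ± 0.08) and Il1r1 (0.90 ± 0.07) were higher in sgUba1 cells. Of 23 tested NF-κB targets in sgUba1 cells 5 were higher and 7 lower, with a median of -0.02. Of all genes 16.2% were higher and 13.6% lower there. Tapbp, among those 5, was higher by 0.51 ± 0.06 on the log2 scale.

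**Figure D3:**
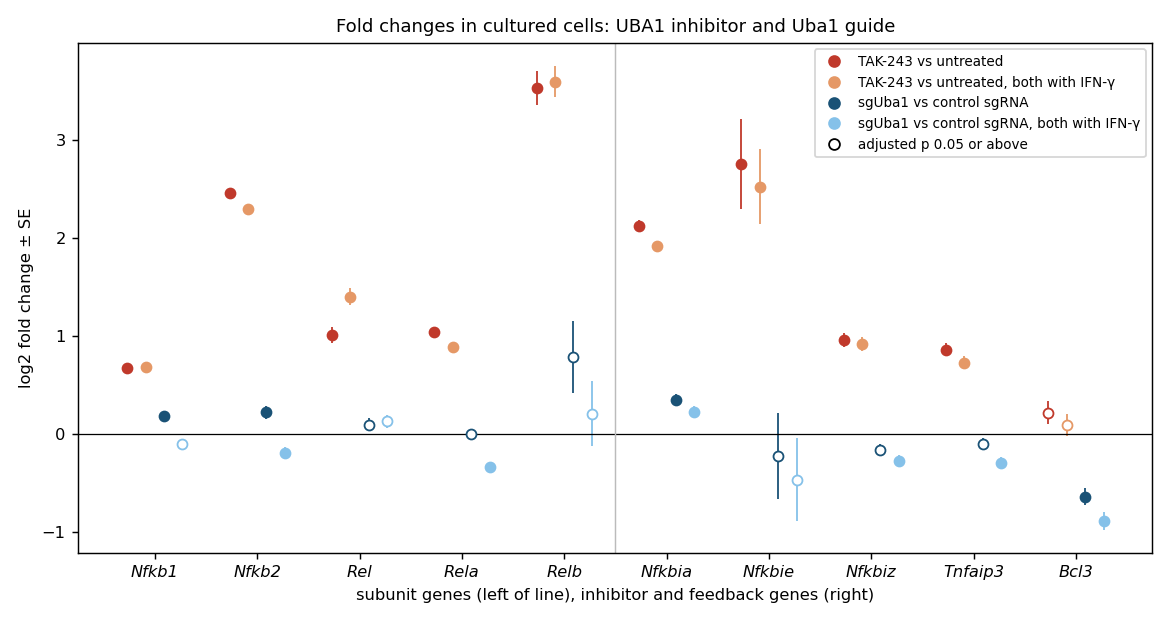
Log2 fold change with its SE for each member in cultured cells, for TAK-243 against untreated and sgUba1 against sgNC, each without and with IFN-γ. Filled points passed an adjusted p of 0.05. TAK-243 values reach 3.59 for Relb, while the sgUba1 values of called members lie between -0.89 and 0.35.

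IFN-γ alone shifted several members in the TAK-243 experiment and none past the threshold in the sgRNA experiment. In otherwise untreated cells 6 members passed, 5 higher and 1 lower, where 29% of all genes passed, 19.6% higher and 9.39% lower. Nfkb2 was at 40.6 and 39.1 CPM with IFN-γ against 31.5 and 32.2 CPM without (log2 0.33 ± 0.06, adjusted p = 0.000203). Rela was at 104 in both libraries against 84.1 and 82 CPM (0.32 ± 0.04, adjusted p = 1.72e-06). Bcl3 was higher by 0.46 ± 0.11, Nfkbia by 0.24 ± 0.07 and Nfkb1 by 0.14 ± 0.05 on the log2 scale. Without the first IFN-γ library those 3 calls were lost (adjusted p up to 0.354), and that of Nfkb1 was lost without any 1 of 6 of the 8 libraries. With limma on TPM, where the median of all genes was itself at -0.14, Rel was the 1 member called and Nfkb1 turned to -0.09.

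Rel went the other way, at 18.8 and 20.4 CPM with IFN-γ against 24.5 and 29.2 CPM without (log2 -0.45 ± 0.09, adjusted p = 0.000443). In sgNC cells Rel was at 19 and 19.4 CPM with IFN-γ and at 18.8 and 18 CPM without. The difference between those responses was -0.50 ± 0.12 (adjusted p = 0.0217), the 1 member of 10 to pass where 3.79% of all genes did, 1.92% lower. That call was lost without any 1 of 5 libraries, namely the second untreated, either IFN-γ or either sgNC with IFN-γ library (adjusted p up to 0.149). In the sgNC cells edgeR called 0 members with IFN-γ, where 3.88% of all genes passed. There, 3 had an unadjusted p under 0.05, as 23% of all genes did, DESeq2 and limma called 0, and Tnfaip3 was nearest (0.22 ± 0.06, adjusted p = 0.061), at 49.4 and 48.4 CPM against 43.5 and 40.4 CPM. Without the first sgNC library Tnfaip3 passed (adjusted p = 0.00614), and without the second Bcl3 passed (0.0497). Irf1, a classical IFN-γ target, rose by 0.64 ± 0.07 in sgNC cells and by 1.63 ± 0.07 in otherwise untreated cells.

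The response to IFN-γ differed between sgUba1 and sgNC cells in 2 members, Nfkb2 (log2 -0.41 ± 0.09, adjusted p = 0.0316) and Rela (-0.34 ± 0.07, adjusted p = 0.0315), where 4.64% of all genes passed, 3.97% lower. Nfkb2 was at 35.7 and 34.8 CPM in sgUba1 cells without and at 29.6 and 29.7 CPM with IFN-γ, while in sgNC cells it was at 29.3 and 31.2 CPM without and 35.1 and 32.8 CPM with. Rela likewise was at 101 and 94.8 CPM and then 81.2 and 84.6 CPM in sgUba1 cells. Both calls were lost without any 1 of the 6 libraries other than those of sgNC cells without IFN-γ (adjusted p up to 0.318). Nfkb1, at -0.28 (adjusted p = 0.0563), passed without either of the latter (0.0297 and 0.00392). They were also lost on the TPM scale with limma.

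In the tumors no member passed edgeR's threshold in any comparison. In Myc-CaP sgUba1 against sgNC tumors edgeR called 0 of 10, where 3.04% of all genes passed. At an unadjusted p under 0.05 there were 5, where 23.7% of all genes were. DESeq2 called 3 members and 1862 of all genes, and limma on TPM called 0 members. Rel was at 44.1, 44.3, 36.7, 80.9, 68.2, 64.2 and 75.3 CPM in sgUba1 tumors 1 to 7, the lowest being 36.7 and the median 64.2, against 35.5, 29.5 and 35.3 CPM in the sgNC tumors. All 7 lay above all 3 controls, as 5.54% of all genes did, but the fitted difference did not pass (log2 0.82 ± 0.25, adjusted p = 0.0914, and 0.0237 with DESeq2). Within the group Rel was highest in the 4 tumors whose Uba1 RNA was above the controls. Over all genes the sgUba1 tumors fell into the same blocks, tumors 1 to 3 and tumors 4 to 7. Chi-square per degree of freedom between paired libraries was 9.71 to 22.7 within a block and 61.3 to 86.9 between blocks. Among sgNC tumors it was 13.2 without the second, and 62.1 and 83.8 with it. The split was thus not particular to Rel, and guide, clone and Uba1 RNA cannot be told apart in it. The fit took all 7 as replicates. Without those 4 tumors the log2 difference of Rel was 0.31 (adjusted p = 0.261).

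Rela split along the same line but downward. It was at 46.6, 51.9 and 49.2 CPM in the 3 tumors with low Uba1 RNA, below every control (71.9, 101 and 70.1 CPM), and at 72.7 to 76.1 CPM in the other 4, within the control range. Over all 7 the log2 difference was -0.35 ± 0.20 (adjusted p = 0.315), and without those 4 it was -0.72 (adjusted p = 0.122). Nfkb1 was at 75.8 to 95.9 CPM in the 7 tumors, below the controls' 104, 124 and 107 CPM, as 5.38% of all genes were (log2 -0.39 ± 0.10, adjusted p = 0.0624, and 0.00466 with DESeq2). It passed without the second sgUba1 tumor (adjusted p = 0.0418). Without the 4 tumors with high Uba1 RNA, edgeR called 0 members and 0.00638% of all genes, with 3 at an unadjusted p under 0.05.

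Nfkb2, Tnfaip3 and Bcl3 had large differences with wide spread. The sgNC tumors themselves ranged from 40.8 to 88.2 CPM in Nfkb2, with the second the highest of all 10 tumors (log2 -0.71 ± 0.23, adjusted p = 0.103, and 0.0461 without the first sgNC tumor). Without the second sgNC tumor the Nfkb2 difference was -0.34 (adjusted p = 0.425). The same sgNC tumor was also the highest in Relb, at 12.1 CPM against 3.09 and 5.63 CPM in the other controls, and in all other members except Rel and Nfkbiz. Tnfaip3 lay between 16.4 and 26.7 CPM in 6 of the sgUba1 tumors and at 62.4 CPM in the third, against 34.1 to 62.6 CPM in controls (-0.98 ± 0.39, adjusted p = 0.165, and 0.023 without the third tumor). Bcl3 was at 14.4 to 27 CPM against 23.5 to 34.1 CPM (-0.56 ± 0.19, adjusted p = 0.117). Summed leukocyte marker RNA was 438 to 800 TPM in the sgUba1 tumors and 267 to 449 TPM in the controls, with Adgre1, Cd68 and C1qa among the markers that passed, and its part was not tested. Of 36 tested targets 2 rose, Bcl2a1b (1.12 ± 0.23) and Saa3 (adjusted p = 0.0497), where 3.04% of all genes passed. The receptor Tlr2 also rose (1.01 ± 0.23).

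In Uba1 OE tumors Rel lay below and Rela above the controls, again short of the threshold. Rel was at 27.9, 34.8, 32.5 and 35.4 CPM against 43.1, 49.7 and 46.7 CPM in EV tumors (log2 -0.51 ± 0.11, adjusted p = 0.124). Rela was at 110, 90.4, 101 and 92.5 CPM against 74.6, 79.4 and 71.5 CPM (log2 0.39 ± 0.09, adjusted p = 0.134). Nfkb2 was at 44.1 to 54.7 CPM against 37.7 to 40.5 CPM (0.28 ± 0.11, adjusted p = 0.227). The groups did not overlap in these 3, 1 below as 10.1% of all genes and 2 above as 10.7%. edgeR called 0 members, where 0.0269% of all genes passed, with 3 at an unadjusted p under 0.05, where 18.2% of all genes were. DESeq2 called 2 members (Rel at an adjusted p of 0.00742 and Rela at 0.021) and 723 of all genes, and limma called 0 members. Leaving out the first Uba1 OE tumor brought Rel past the threshold (adjusted p = 0.0473). Summed leukocyte marker RNA was 117 to 473 TPM in these tumors and 363 to 455 TPM in EV tumors, and its part was not tested.

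**Figure D4:**
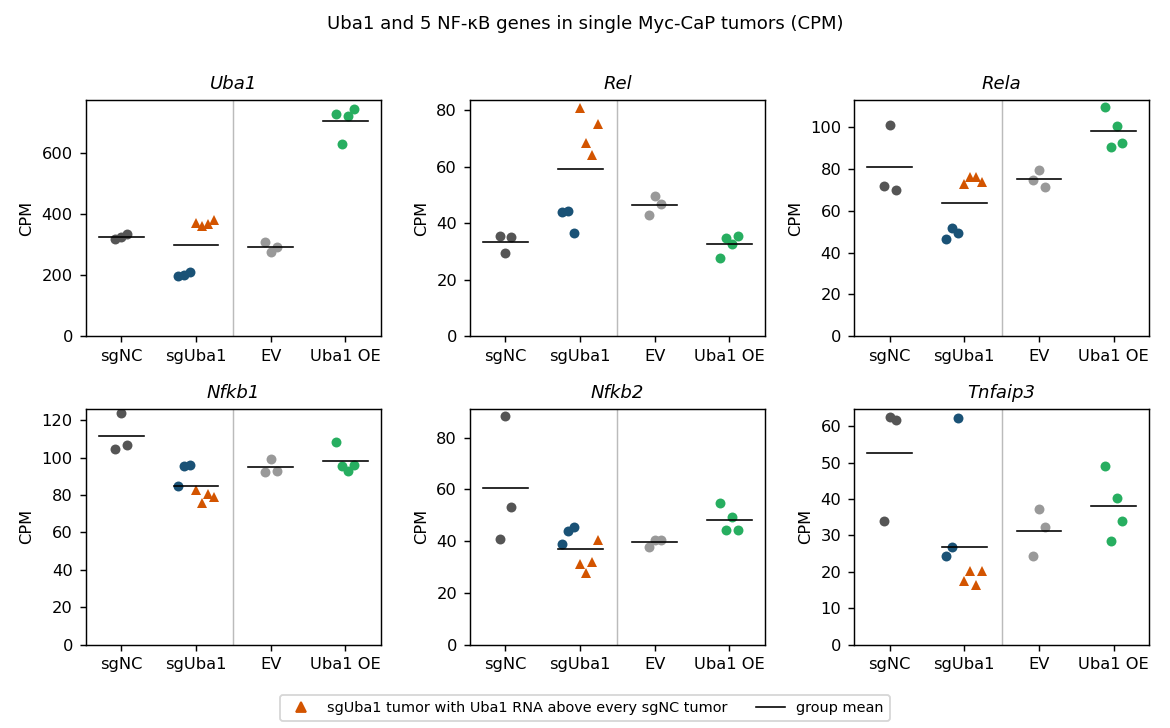
CPM of Uba1 and 5 members in each Myc-CaP tumor of the sgRNA experiment (sgNC and sgUba1) and of the overexpression experiment (EV and Uba1 OE), with bars at the group means and triangles for the 4 sgUba1 tumors whose Uba1 RNA lay above every sgNC tumor. Rel is highest in those 4 tumors, at 64.2 to 80.9 CPM, and Rela is lowest in the other 3, at 46.6 to 51.9 CPM.

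The B16-BL6 sgUba1 tumors, in which Uba1 RNA was lower in every tumor, showed no member past the threshold. edgeR called 0 of 10, where 0.724% of all genes passed, with 0 at an unadjusted p under 0.05 (16.3% of all genes), 0 by DESeq2 and 0 by limma. Nfkbia was at 34.2, 29, 37.8 and 27 CPM against 29, 25 and 28.6 CPM in sgNC tumors. Rel was at 18.6 to 23.1 CPM against 20.7 to 23.6 CPM, and Rela at 36.4 to 46.8 CPM against 38.3 to 41 CPM. The groups overlapped in every member, while 15.3% of all genes did not. In a test of the sgUba1 effect between the models, edgeR called 0 members, where 1.52% of all genes passed, with 3 at an unadjusted p under 0.05 (18.3% of all genes), 0 by limma and 1 by DESeq2. That 1 was Nfkb1 (log2 -0.47 ± 0.13, adjusted p = 0.069, and 0.00559 with DESeq2). Leaving out the first sgNC, or sgUba1 tumor 2 or 3 of the Myc-CaP model, also brought it past the threshold (adjusted p from 0.0469 to 0.048), and without tumor 3 Rel passed as well (0.0484). Without the 4 tumors with high Uba1 RNA 0 members passed, and Nfkb1 was at -0.36 (adjusted p = 0.128).

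In tumors of TAK-243-treated mice the members that moved most in culture did not pass. edgeR called 0 of 10, where 0.145% of all genes passed, with 1 at an unadjusted p under 0.05 (15% of all genes), 0 by DESeq2 and 0 by limma. Relb was at 4.34, 4.71, 5.55, 7.3 and 9.96 CPM in treated tumors, and had a lowest value of 3.39, a median of 4.62 and a highest value of 6.82 CPM in the 6 vehicle tumors. Nfkb2 was at 36.8, 40.9, 61.7, 49 and 66.5 CPM against 35.2 to 56.1 CPM, and Nfkbia at 33.1, 36.5, 49.5, 51.4 and 69.3 CPM against 42.2 to 67.2 CPM. No member was free of overlap, as 2.03% of all genes were. Bcl3, which did not pass in culture, came nearest, at 31.4, 35, 39.4, 46.6 and 46.6 CPM against 23.4 to 35.5 CPM (log2 0.45 ± 0.14, adjusted p = 0.188). Dose, duration and the mix of cells all differ between culture and mice, so the values stand side by side without a comparison. Summed leukocyte marker RNA was 302 to 536 TPM in treated and 198 to 321 TPM in vehicle tumors, and its part was not tested.

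Across all 51 libraries the members followed different companions once group means were removed. Over 15000 genes, Nfkbiz was most like Jun (Pearson r = 0.822) and Fos (0.793), Bcl3 most like Cd14 (0.740) and Cebpb (0.661), and Tnfaip3 most like Zyx (0.810) and Bhlhe40 (0.806). Rela was most like Coro1b (0.927), Nfkbia most like Gtpbp2 (0.818), Nfkb2 most like Zfp608 (0.883) and Relb most like Pld2 (0.795). Among the members themselves the highest values were those of Nfkbiz with Tnfaip3 (0.773), Nfkb2 with Relb (0.706) and Relb with Nfkbia (0.699). These are descriptions over libraries that share groups and depth. Removing group means leaves in the blocks of the Myc-CaP sgUba1 tumors and the second sgNC tumor, high in most members. Their part in these values was not tested.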

How the data were processed

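RNA-seq was compared in 51 mouse libraries. The authors deposited estimated counts per gene (expected counts, 31.9% of values not whole) and TPM, made with kallisto on mm10 per the labels, with no version given, and the annotation is not given in the sources used here. The labels name poly-A RNA, and the study's methods name rRNA removal. Whether counting used strand was not stated. Counts were rounded and, per experiment, filtered (filterByExpr), TMM-scaled and fitted with edgeR 4.0.16 quasi-likelihood in R 4.3.3. Benjamini-Hochberg adjustment ran over all genes tested, with a threshold of 0.05. CPM used TMM within an experiment. DESeq2 1.42.0 and limma 3.58.1 on log2(TPM + 1) or log2(TPM + 0.1), RLE scaling, no filter, a replicate block, left-out libraries and other sample sets were alternatives. Fits across experiments for the difference between IFN-γ responses and between TAK-243 and sgUba1 effects were added after the data were seen. All 75 replicate pairs differed beyond counting noise. The fits were tested on simulated data. Of 40077 rows, 9732 were at 0 throughout.

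The members and gene lists were chosen with earlier results of these data known. Named genes were the 10 members, Uba1, at most 4 genes of smallest adjusted p in a pathway list, the 2 genes most like each member, and markers beside a result. Irf1 and Tnf were named, and the fit without 4 Myc-CaP sgUba1 tumors was chosen, after values were seen. Same-numbered libraries did not deviate together (correlations from -0.179 to 0.315). Errors after ± are standard errors of the edgeR fit. One marker is not reported here.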

Additional observations from a re-analysis of the deposited data

Results flagged for a closer look

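Over 50 combinations of a member and a group of 4 to 7 tumors, 5 held 1 tumor far from the rest by Dixon's test, and chance alone flags about 1 in 20. In vehicle tumor 5, Nfkbia was at 67.2 CPM and Nfkbiz at 61.6 CPM, the highest of the 6. Tnfaip3 was at 67.4 CPM in TAK-243 tumor 5 and at 62.4 CPM in Myc-CaP sgUba1 tumor 3, each the highest of its group. Nfkbia was at 35.3 CPM in Myc-CaP sgUba1 tumor 1, the lowest of the 7. The effect of IFN-γ differed between sgUba1 and sgNC cells by -0.41 in Nfkb2 and by -0.34 in Rela on the log2 scale, each by the test of the interaction. The effect of IFN-γ on Rel differed between the otherwise untreated and the sgNC cells by -0.50 on the log2 scale.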

How the results depend on the processing

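The rise of 9 members with TAK-243 in cells was the firmest result: the count stayed at 9 or 10 under each alternative run, with and without IFN-γ, and the excess over sgUba1 stayed at 10. Elsewhere the count of called members moved. With DESeq2 it was 3 in Myc-CaP sgUba1 tumors, 2 in Uba1 OE tumors, 2 in sgUba1 cells and 1 for the difference between tumor models. With all 17 Myc-CaP tumors in 1 fit it was 3 for sgUba1. In sgUba1 cells it was 2 with limma at either pseudocount and 2 with only those groups in the fit, and with IFN-γ it was 3 with limma. With limma it was 1 for IFN-γ in untreated cells and 0 for the change in the IFN-γ response with sgUba1. For IFN-γ in sgNC cells it was 1 without the filter. A replicate block gave 1 there (Tnfaip3) and 1 for the IFN-γ response change with TAK-243 (Rel), and changed no other count by over 1.5 times; same-numbered libraries did not pair. Leaving out 1 library moved the count between 0 and 1 in Myc-CaP sgUba1 and Uba1 OE tumors, 2 and 4 in sgUba1 cells, 4 and 6 in sgUba1 cells with IFN-γ, 0 and 1 for IFN-γ in sgNC cells, 0 and 3 for the response change with sgUba1, 3 and 6 for IFN-γ in untreated cells, 0 and 1 for the response change with TAK-243, 0 and 3 between models and 0 and 2 for IFN-γ between experiments. The count of all genes called moved with the alternatives other than a left-out library: from 492 to between 1 (without the 4 tumors with high Uba1 RNA) and 1862 (DESeq2) in Myc-CaP sgUba1 tumors, from 4 to between 0 and 723 in Uba1 OE tumors, from 25 to between 8 and 558 in TAK-243 tumors, from 127 to between 89 and 532 in B16-BL6 tumors, from 266 to between 115 and 1197 between models, from 4618 to between 2618 and 5037 in sgUba1 cells, from 6119 to between 4037 and 7119 in sgUba1 cells with IFN-γ, from 603 to between 18 and 1460 for IFN-γ in sgNC cells, from 720 to between 4 and 1487 for the response change with sgUba1, from 4216 to between 2651 and 4384 for IFN-γ in untreated cells, from 347 to between 1 and 488 for the response change with TAK-243 and from 596 to between 704 and 930 for IFN-γ between experiments. Leaving out 1 library moved it to between 10 and 692 in Myc-CaP sgUba1, 0 and 386 in Uba1 OE, 1 and 299 in TAK-243 and 43 and 320 in B16-BL6 tumors, 29 and 661 between models, 2932 and 5641 in sgUba1 cells, 35 and 2721 for IFN-γ in sgNC cells, 14 and 2622 for the response change with sgUba1, 85 and 329 for that with TAK-243 and 168 and 1811 for IFN-γ between experiments. Signs turned with limma at pseudocounts 1 and 0.1 for Tnfaip3 with IFN-γ in sgNC cells (-0.041 and -0.043), Nfkb1 with IFN-γ in untreated cells (-0.088 and -0.091), Nfkb2 in the response change with TAK-243 (0.046 and 0.043) and Nfkb2 between experiments (-0.0059 and -0.0066), and and, leaving out 1 library, for Bcl3 with TAK-243 (from -0.078 without the first to 0.34 without the second TAK-243 library) and with TAK-243 plus IFN-γ (from -0.021 without the second to 0.19 without the first IFN-γ library). Causes were not tested. On the TPM scale the median of all genes lay at -0.14 to -0.19 for IFN-γ in untreated cells, 0.12 to 0.18 for TAK-243 with IFN-γ, 0.11 to 0.14 for their interaction and -0.10 to -0.13 for IFN-γ between experiments. The tally over single members took those with an unadjusted p under 0.05 in the reported fit. It also took every member with TAK-243 in cells, with or without IFN-γ, and Rela in Myc-CaP sgUba1 tumors. Of these recomputed values, 1132 kept direction and side of the threshold, 69 lost the call, 31 gained it and 10 turned sign. Other members, among them most of those in tumors, were not tallied. Nfkbie and Relb, at few counts in culture, and 2 libraries a group limit what could be detected there.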
